A study of Mus musculus with 54 samples.

Results

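Described here are 10 regulators and markers of blood and endothelium, Tal1, Fli1, Kdr, Gata2, Lmo2, Etv2, Runx1, Pecam1, Cdh5 and Vwf, taken by name from the 55401 genes of a table of raw RNA-sequencing counts. All 10 were found, each under 1 identifier. The samples are mouse embryonic stem cells, kept undifferentiated (mESC) or briefly differentiated by withdrawal of 2i and LIF and treatment with all-trans retinoic acid (ATRA). The study asks how variants of the histone methyltransferase EZH2 act in Ezh2 fl/Δ heterozygous cells. The 8 lines are parental, whose genotype label is that word and whose library names carry flfl, het (parental_EZH2-heterozygote), and 6 lines that express added EZH2, either EZH2-WT (WT) or an EZH2-A677T, EZH2-R679C, EZH2-K634E, EZH2-K563E or EZH2-A733T mutant. Per the series text, the lines with added EZH2 are heterozygous for Ezh2, as het is. A677T, R679C, K634E and K563E are called the Weaver lines here, after Weaver syndrome, an overgrowth disorder, and A733T is taken as the variant linked to growth restriction. This division rests on general knowledge of the study, since the labels name no syndrome for a variant. Each line has 3 libraries per state, 48 in all. The labels give neither the dose nor the time of ATRA, nor the promoter of the added EZH2, nor whether a line is 1 clone or its 3 libraries separate cultures. The spread behind each p-value is that among the 3 libraries within each group, pooled over all groups fitted together, and may be technical. Libraries labelled Y728 were not analysed here.

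Blood and endothelium arise together in the embryo from mesoderm that switches on Kdr, the receptor of vascular endothelial growth factor (VEGF). Etv2, an ETS-family transcription factor, acts early in this programme and turns on Fli1, another ETS factor, Tal1, a basic helix-loop-helix factor, and Gata2. TAL1 and GATA factors bind DNA in a complex bridged by LMO2, and RUNX1 is needed for blood stem cells to emerge from endothelium. Pecam1 (CD31) and Cdh5 (VE-cadherin) encode adhesion proteins of endothelial junctions, and Vwf encodes von Willebrand factor, a clotting protein of endothelial cells and platelets. Pecam1 is also known as a surface protein of undifferentiated mouse embryonic stem cells. EZH2 is the enzyme of Polycomb repressive complex 2, which methylates histone H3 on lysine 27 and silences developmental genes, many of which have promoters rich in CpG dinucleotides.

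RefSeq promoters (GRCm38.p6) were held for 5 of the 10 genes, Tal1, Kdr, Gata2, Etv2 and Runx1, and not for Fli1, Lmo2, Pecam1, Cdh5 and Vwf. All 5 genes with a promoter rose in WT after ATRA, and the promoters of Runx1 are described below without sequence. For the other 4 genes 1 promoter each is shown, and these differ in CpG content. Each is the 250 bases before the start, 5′ to 3′ along the gene, with CpG dinucleotides in capitals, at chr4:115056176-115056425 (plus strand) for Tal1, chr5:75978456-75978705 (minus) for Kdr, chr6:88193641-88193890 (plus) for Gata2 and chr7:30635853-30636102 (minus) for Etv2.
Tal1: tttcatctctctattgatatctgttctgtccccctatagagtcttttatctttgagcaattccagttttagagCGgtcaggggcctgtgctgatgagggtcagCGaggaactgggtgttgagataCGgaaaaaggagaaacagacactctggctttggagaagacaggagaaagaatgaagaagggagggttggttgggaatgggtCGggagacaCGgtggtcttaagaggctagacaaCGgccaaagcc
Kdr: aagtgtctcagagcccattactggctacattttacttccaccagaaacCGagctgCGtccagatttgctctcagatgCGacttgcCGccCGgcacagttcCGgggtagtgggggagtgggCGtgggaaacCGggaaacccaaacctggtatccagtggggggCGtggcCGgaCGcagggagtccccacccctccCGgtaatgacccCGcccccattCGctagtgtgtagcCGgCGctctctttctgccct
Gata2: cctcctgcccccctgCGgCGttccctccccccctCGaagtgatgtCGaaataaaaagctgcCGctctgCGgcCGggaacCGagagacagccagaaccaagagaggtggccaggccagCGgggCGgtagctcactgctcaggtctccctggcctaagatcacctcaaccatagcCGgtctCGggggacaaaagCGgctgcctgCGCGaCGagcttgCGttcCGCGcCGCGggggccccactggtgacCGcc
Etv2: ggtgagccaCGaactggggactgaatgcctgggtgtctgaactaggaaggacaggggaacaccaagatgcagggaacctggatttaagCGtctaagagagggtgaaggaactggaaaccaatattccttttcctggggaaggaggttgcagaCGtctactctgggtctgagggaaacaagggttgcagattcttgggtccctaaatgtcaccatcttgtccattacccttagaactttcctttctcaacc

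Gata2 had 22 CpG in this window, Kdr 16, Tal1 6 and Etv2 3, against a median of 6 over 32851 windows of the same length. The ratio of observed to expected CpG was 0.78 for Gata2, 0.68 for Kdr, 0.45 for Tal1 and 0.2 for Etv2, with a median of 0.37 over all windows. Tal1 and Gata2 each have a further RefSeq promoter, with 16 and 24 CpG and a ratio of 0.74 in both, so the place of Tal1 depends on the promoter taken. A link of CpG content to the response was not tested. Runx1 has a pair of promoters at either end of this range, with 2 CpG (ratio 0.17) at chr16:92826075-92826324 and 27 (ratio 0.98) at chr16:92697330-92697579. The motifs searched, on both strands, were AGATAA for GATA factors, CCGGAA for ETS factors, CAGATG as an E-box and AGGTCA as a half-site of retinoic acid receptors. The Tal1 window held 1 match, to the GATA motif, 205 to 200 bases before the start. Kdr held an E-box at 179 to 174 and an ETS match at 153 to 148 bases before it, and neither the Gata2 nor the Etv2 window held any of the 4. Over all windows 9.99% held the GATA motif, 12% the ETS motif, 14.4% the E-box and 14% the half-site. No match overlapped another.

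Library totals ran from 15361598 to 29614420 in mESC and from 15612700 to 31338825 after ATRA. Levels are counts per 1000000 library counts after TMM normalisation (CPM), as the mean ± SD of 3 libraries. Ezh2, the targeted gene, was at 301.8 ± 0.871 CPM in parental, 280.6 ± 4.11 in het and 439.4 ± 22.8 in WT in mESC, at line means of 488.5 to 560.0 in the Weaver lines and at 360.5 ± 17.6 in A733T. Its levels after ATRA were 279.0 ± 5.02 CPM in parental, 238.6 ± 4.86 in het and 362.2 ± 5.04 in WT. The Weaver lines then had means of 383.6 to 424.2 CPM, and A733T 275.1 ± 3.76. Whether reads of added EZH2 were counted under Ezh2 is not given. The 10 pluripotency markers summed to 4623.8 to 5985.5 CPM per library in mESC and 522.7 to 898.6 after ATRA, and the 8 retinoic acid response genes to 75.5 to 131.6 and 678.7 to 1119.7. Of 13 blood cell genes, 10 had a mean under 1 CPM in every line and state. Hbb-bs and Hbb-bt, the adult beta-globin genes, had 0 counts in all libraries. Itga2b, Hbb-y and Itgb3 had highest line means of 3.27, 2.56 and 1.45 CPM. Hbb-y had 0 counts in het and in WT in mESC, and 97 and 113 after ATRA. In bulk RNA, fewer cells of a type and less RNA per cell cannot be told apart. Libraries also differed in a GC trend, given as the Spearman correlation over genes of GC content with the distance of a library from the average library. In mESC it was 0.49 to 0.72 in WT and -0.72 to 0.1 in the Weaver lines. The libraries with the lowest value of each state were A677T replicate 3 in mESC (-0.72) and K634E replicate 3 after ATRA (-0.75), and without either of them the counts of 5 and 8 genes given below for the Weaver mean against WT stayed the same. Leaving out 1 library cannot test the trend, since in mESC every WT library stayed above every Weaver library. With a correction for it, Gata2 and Lmo2 were no longer called in that comparison in mESC (adjusted p = 0.19 and 0.11 in edgeR). The mitochondrial share of counts in mESC was 1.48 to 1.811% in WT and 1.665 to 2.703% in the Weaver lines, highest in A677T replicate 3 and above every WT library in 11 of 12. After ATRA it was 1.489 to 1.958% in WT and 1.26 to 2.77% in the Weaver lines, highest in K634E replicate 3.

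After ATRA, WT exceeded het in 8 of the 10 genes: Tal1 5.31-fold, Fli1 5.23-fold, Kdr 5.19-fold, Etv2 3.68-fold, Cdh5 3.66-fold, Gata2 3.08-fold, Runx1 2.09-fold and Lmo2 2.03-fold. Pecam1 was lower, at 0.677 of the het level, and Vwf stood at 0.715 of it without passing the test (adjusted p = 0.265). A gene is called at a Benjamini-Hochberg adjusted p under 0.05 in edgeR's quasi-likelihood test over all genes. Of 17030 genes tested, 16.4% were called, 7.64% higher and 8.74% lower, and the 10 genes had a median log2 fold change of 1.75 against -0.01 over all genes. The 9 calls held without any 1 library and in all 7 other fits tried.

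Tal1 lies on chromosome 4 from 115056426 to 115071755 on the plus strand (GRCm38). After ATRA its level was 5.41, 3.27 and 4.05 CPM in the parental libraries, 5.39, 3.34 and 4.18 in het, and 24.3, 22 and 23.4 in WT. The WT libraries stood above both other lines, whose values overlapped each other. The log2 fold change of WT over het was 2.41 (SE 0.145, adjusted p = 9.6e-12). Over the lines Tal1 ranked K563E, A677T, K634E, R679C, WT, A733T, het and parental, from a mean of 35 ± 4.36 CPM down. R679C overlapped WT, WT and A733T did not overlap, and A733T (14.6 ± 0.532) did not overlap het.

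Etv2, on chromosome 7 from 30633616 to 30635852 on the minus strand, is the ETS factor placed early in the programme. It was at 7.17, 4.13 and 4.29 CPM in parental, 7.51, 5.39 and 6.44 in het, and 24.3, 22.6 and 24.8 in WT after ATRA (log2 1.88, SE 0.149, adjusted p = 1.74e-09). No WT library overlapped het or parental. The Weaver lines ranged from 26.2 ± 3.8 CPM in K634E, which overlapped WT, to 43.1 ± 4.34 in A677T, and A733T lay between het and WT at 13.3 ± 0.303.

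Fli1, on chromosome 9 from 32422204 to 32542861 on the minus strand, was rarer. It was at 0.844, 0.906 and 0.839 CPM in parental, 1.07, 0.77 and 0.805 in het, and 4.75, 4.27 and 5.19 in WT after ATRA (log2 2.39, SE 0.274, adjusted p = 6.09e-07). The WT libraries were again separate from both other lines. The 6 small gene models that overlap Fli1 had at most 16 counts each over all libraries, against 2370 for Fli1.

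Kdr, on chromosome 5 from 75932827 to 75978458 on the minus strand, is the receptor gene among the 10. After ATRA it was at 3.2, 1.96 and 2.86 CPM in parental, 4.17, 2.61 and 3.88 in het, and 20.9, 15.6 and 19.5 in WT (log2 2.38, SE 0.174, adjusted p = 6.97e-10). Its lines ranked A677T, K563E, K634E, R679C, WT, A733T, het and parental. R679C and WT, WT and A733T, and A733T and het did not overlap, while het and parental did.

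Gata2 and Lmo2 encode the zinc-finger factor and the bridging protein of the TAL1 complex. Gata2, on chromosome 6 from 88193891 to 88207032 on the plus strand, was at 6.68, 5.65 and 5.18 CPM in het and 20.2, 16.3 and 18.1 in WT after ATRA (log2 1.62, SE 0.146, adjusted p = 1.01e-08). Lmo2, on chromosome 2 from 103957986 to 103981878 on the plus strand, was at 10.8, 9.37 and 9.31 CPM in het and 21.2, 18.2 and 20.5 in WT (log2 1.02, SE 0.123, adjusted p = 9.86e-07). Neither gene overlapped between the lines. Both were highest in K563E, at 31.3 ± 2.2 and 25.6 ± 2.05 CPM, apart from the next line. Lmo2 shares its locus with 4931422A03Rik on the opposite strand, which had 575 counts in all libraries against 8855, and without the strand setting of the counting their reads cannot be told apart.

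Runx1, on chromosome 16 from 92601466 to 92826149 on the minus strand, had another order of lines. It was highest in WT after ATRA, at 4.37, 5.22 and 5.33 CPM, against 2.94, 2.05 and 2.06 in het (log2 1.06, SE 0.18, adjusted p = 0.000134). No library of any other line reached the lowest WT value. Next came A733T at 3.42 ± 0.0824 CPM, apart from the lines below it, while those 6 overlapped from neighbour to neighbour. Gm26626, antisense within Runx1, had 11 counts in all libraries against 1720.

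Of the 3 genes of endothelial surface or secreted proteins, Cdh5 rose in WT. Cdh5, on chromosome 8 from 104101625 to 104144511 on the plus strand, was near the detection limit, with 24 counts in the 3 het libraries after ATRA and 76 in WT (0.297 ± 0.166 and 1.15 ± 0.302 CPM, log2 1.87, SE 0.402, adjusted p = 0.00156). Pecam1, on chromosome 11 from 106654217 to 106750628 on the minus strand, was at 39.8, 44.1 and 42.4 CPM in het and 27.9, 28.7 and 28.6 in WT (log2 -0.56, SE 0.0778, adjusted p = 8.32e-06). Vwf, on chromosome 6 from 125546774 to 125686679 on the plus strand, was at 1.56, 2.01 and 1.66 CPM in het and 1.15, 1.42 and 1.12 in WT, which did not overlap. Parental was highest for both, at 53.8 ± 3.41 CPM of Pecam1 and 2.63 ± 0.349 of Vwf.

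**Figure D1:**
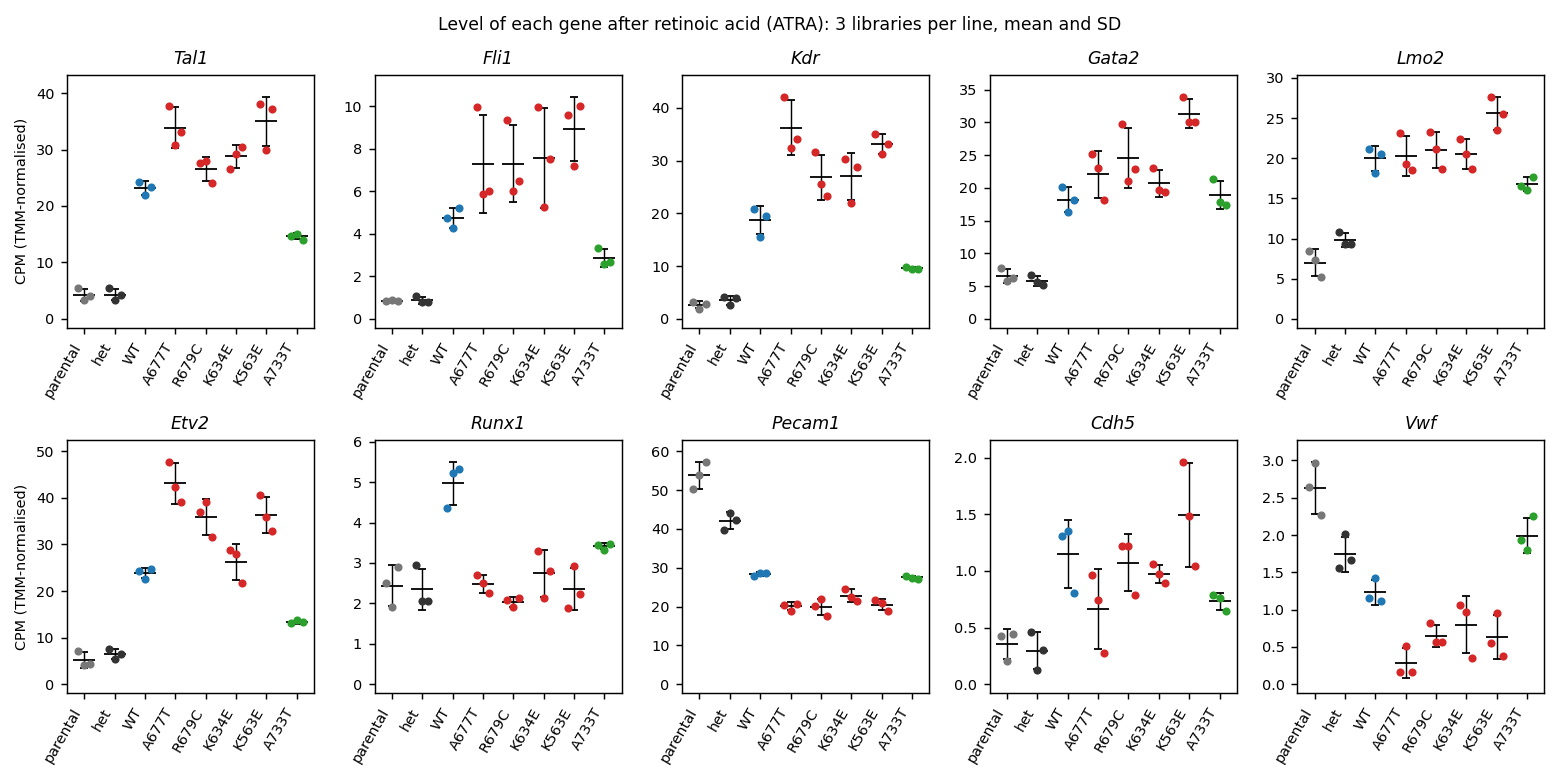
Level of each of the 10 genes after ATRA, in TMM-normalised CPM on a linear axis that differs between panels, by line. Points are the 3 libraries of a line, the dash and bar their mean and SD, and colours mark parental and het (greys), WT (blue), the 4 Weaver lines (red) and A733T (green). Tal1 has means of 4.3 CPM in het and 23.2 in WT, Runx1 is highest in WT at 4.97, and Pecam1 is highest in parental at 53.8.

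Markers of another lineage moved in the same comparison. Of 14 genes of extraembryonic endoderm 12 were tested, and 9 were higher in WT than in het and none lower. Their summed level was 530.7 to 555.8 CPM in the het libraries and 639.3 to 728.1 in WT. Cubn had means of 7.45 CPM in het and 14.6 in WT, Gata6 52.2 and 78.7, and Dab2 13.6 and 18.5. Amn was at 1.75 and 1.78 CPM and Sparc at 111.3 and 104.0. Afp had 11 counts in het and 2 in WT, and Ttr, a defining gene of visceral endoderm, had 0 counts in both. The 8 retinoic acid response genes summed to 818.5 to 830.2 CPM in het and 800.2 to 909.0 in WT, which overlap. The 10 pluripotency markers summed to 770.3 to 834.8 in het and 684.5 to 698.2 in WT, with 4 called lower. The part of these markers in the result was not tested.

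The parental line gives another reference for WT. After ATRA all 10 genes were called in WT against parental, where 28.4% of genes were: 8 were higher, by log2 values from 1.03 for Runx1 to 2.77 for Kdr, and Pecam1 (-0.92, SE 0.0777) and Vwf (-1.08, SE 0.276, adjusted p = 0.00391) were lower. This comparison shares the WT libraries with that against het. Beside these genes, 7 of 12 extraembryonic endoderm markers tested were higher in WT than in parental and 1 lower (sums of 639.3 to 728.1 and 565.1 to 608.8 CPM). Of the pluripotency markers 8 of 10 were lower (684.5 to 698.2 and 846.3 to 898.6), as were 5 of 8 trophoblast markers, and the part of these markers was not tested. Between het and parental, 2 of 10 were called, with 6.25% of genes. Pecam1 was lower in het (-0.36, SE 0.0758, adjusted p = 0.00279). Lmo2 was higher (0.48, SE 0.133, adjusted p = 0.0268), but not without het replicate 1 (0.174), parental replicate 3 (0.215) or parental replicate 2 (0.0572). Tal1 stood at 0.01 (SE 0.168) and Fli1 at 0.06 (SE 0.355), with adjusted p = 0.988 and 0.963.

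In the Weaver lines after ATRA, 5 genes exceeded WT and 3 fell below it. Kdr was 1.64-fold higher in the mean of the 4 lines, Fli1 1.63-fold, Etv2 1.46-fold, Gata2 1.34-fold and Tal1 1.33-fold, while Pecam1 stood at 0.734, Runx1 at 0.48 and Vwf at 0.454 of the WT level. Lmo2 (log2 0.12, adjusted p = 0.389) and Cdh5 (-0.18, 0.693) did not pass. Of all genes 20.5% were called, 8.43% higher and 12.1% lower. The calls of Gata2 (adjusted p = 0.00492) and Fli1 (0.00454) were lost without WT replicate 2, at 0.0747 and 0.0525. With A733T averaged in with the 4 lines, those of Tal1 (0.227), Etv2 (0.112) and Fli1 (0.136) were lost.

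Kdr was at 21.9 to 42.1 CPM over the 12 Weaver libraries (median 31.5) and at 15.6 to 20.9 in WT, with no overlap (log2 0.72, SE 0.12, adjusted p = 8.87e-05). Runx1 was at 1.89 to 3.29 CPM over the 12 Weaver libraries (median 2.24) and at 4.37 to 5.33 in WT, also with no overlap (log2 -1.06, SE 0.138, adjusted p = 1.88e-06). Tal1 was at 24.1 to 38 CPM over the 12 Weaver libraries (median 30.3) and Etv2 at 21.8 to 47.7 CPM over the 12 Weaver libraries (median 36.4). Both overlapped WT at the low end of these ranges (log2 0.41 and 0.55, SE 0.1 and 0.108, adjusted p = 0.00359 and 0.000568). Of 12 extraembryonic endoderm markers tested, 9 were lower in the Weaver mean than in WT and none higher, and they summed to 381.3 to 479.5 CPM per Weaver library. The part of these markers in the result was not tested.

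The 4 lines differed in how many genes were called against WT. K563E had 8 (20.5% of all genes called), A677T 7 (19.4%), R679C 5 (10.3%) and K634E 4 (15%). Runx1 was lower in each of them, by log2 values of -1.01 in A677T, -1.29 in R679C, -0.87 in K634E and -1.07 in K563E, and these calls held without any 1 library. Etv2 was higher in A677T (0.85), R679C (0.6) and K563E (0.61), and stood at 0.14 in K634E (adjusted p = 0.517). Tal1 was higher in A677T (0.54) and K563E (0.59), and stood at 0.2 in R679C (0.34) and 0.32 in K634E (0.083). Gata2 was higher in K563E (0.79, SE 0.131, adjusted p = 8.05e-05). With the GC trend of each library taken out, Etv2 (0.0144), Tal1 (0.0282) and Gata2 (0.0359) passed in K634E as well, Gata2 in A677T (0.0123), and Vwf (0.0384) and Fli1 (0.0281) in R679C. In R679C and WT after ATRA, libraries of the same number deviated together, and with a replicate block Vwf (0.0419) and Fli1 (0.00444) passed there too. The differences among the 4 lines were not tested.

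Kdr was called in all 4, at 0.96 in A677T and 0.84 in K563E, and at 0.54 in both R679C (adjusted p = 0.0175) and K634E (0.0144). The R679C call was lost without R679C replicate 1 (0.124) or WT replicate 2 (0.109), and that of K634E in a fit of only the groups compared (0.072) or without K634E replicate 3 (0.08), K634E replicate 1 (0.0598) or WT replicate 2 (0.107). Fli1 was higher in K563E (0.91, adjusted p = 0.00288), and stood at 0.61 in A677T (0.0443), 0.67 in K634E (0.0363) and 0.62 in R679C (0.0621). In R679C it passed in DESeq2 (0.0496) and without the filter on low counts (0.00695). Its A677T call was lost without A677T replicate 1 (0.367), WT replicate 3 (0.056), WT replicate 2 (0.16) or WT replicate 1 (0.099), and its K634E call with the GC correction (0.0823), with only the groups compared (0.11) or without K634E replicate 3 (0.107), K634E replicate 1 (0.191), WT replicate 2 (0.152) or WT replicate 1 (0.0845). Gata2 in R679C stood at 0.44 (adjusted p = 0.0299), lost with only the groups compared (0.066) or without R679C replicate 1 (0.253), WT replicate 3 (0.0777) or WT replicate 2 (0.142). Lmo2 in K563E stood at 0.35 (0.0319), lost without K563E replicate 3 (0.0833), K563E replicate 1 (0.128) or WT replicate 2 (0.164).

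Among the surface and secreted proteins, Pecam1 was lower in A677T (-0.51), R679C (-0.5) and K563E (-0.47), and stood at -0.31 in K634E (adjusted p = 0.0111), lost with only the groups compared (0.0924) or without K634E replicate 3 (0.062). Vwf was lower in A677T (-2.08, SE 0.397, adjusted p = 0.000348) and stood at -0.93 in R679C (0.0794), -0.62 in K634E (0.219) and -0.94 in K563E (0.0526). In K563E it passed in DESeq2 (0.048) and with the replicate block (0.0295). Cdh5 passed in none of the 4, with log2 values from -0.79 in A677T to 0.36 in K563E and adjusted p of at least 0.147.

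Against het, 9 of 10 genes were called in the Weaver mean after ATRA, 7 higher and 2 lower, with 45.8% of all genes. Kdr was 8.54-fold, Fli1 8.52-fold and Tal1 7.08-fold higher than in het, and Pecam1 was at 0.497 and Vwf at 0.324 of the het level. Runx1 was the gene not called, at a log2 difference of 0.0 (SE 0.156, adjusted p = 0.988). This comparison shares the Weaver libraries with that against WT.

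In A733T after ATRA, 5 of 10 genes were lower than in WT and none higher, with 17.7% of all genes called. Kdr stood at 0.516, Etv2 at 0.558, Fli1 at 0.599, Tal1 at 0.629 and Runx1 at 0.685 of the WT level. Kdr was at 9.86, 9.48 and 9.43 CPM, below each WT library and above each het library (log2 -0.96, SE 0.159, adjusted p = 0.000145). Etv2, at 13.1, 13.7 and 13.3 CPM, and Tal1, at 14.6, 15.1 and 14, lay in the same gap (log2 -0.84 and -0.67, adjusted p = 0.000156 and 0.000616). Gata2 stood at 0.05 (SE 0.134, adjusted p = 0.847) and Pecam1 at -0.05 (SE 0.08, adjusted p = 0.741). Lmo2 stood at -0.25 (0.154), and passed with the GC correction (0.0208) and with only the groups compared (0.0393).

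The Fli1 call (adjusted p = 0.0321) was lost without A733T replicate 3 (0.0852), A733T replicate 2 (0.128), WT replicate 3 (0.113) or WT replicate 1 (0.0706). That of Runx1 (0.0326) was lost without the filter on low counts (0.0574) and without A733T replicate 3 (0.0618), A733T replicate 2 (0.106), A733T replicate 1 (0.0788), WT replicate 3 (0.114) or WT replicate 2 (0.0941). Other markers stood higher in A733T than in WT beside these genes. The retinoic acid response genes summed to 1067.9 to 1119.7 CPM against 800.2 to 909.0, with 4 of 8 called higher. The trophoblast markers summed to 130.4 to 143.0 against 57.8 to 65.8, with 7 of 8 tested called higher, and 4 of 7 neural and 5 of 10 pluripotency markers were also called higher. The extraembryonic endoderm markers summed to 752.4 to 816.4. The part of these markers in the result was not tested.

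**Figure D2:**
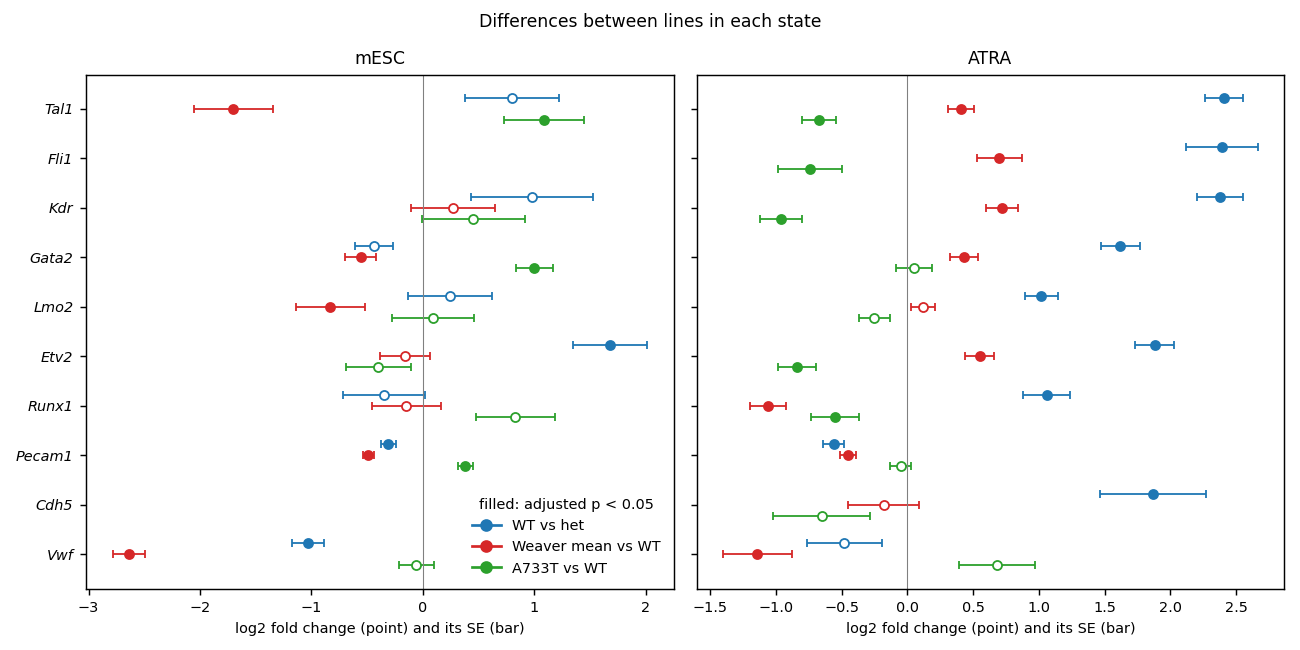
Log2 fold change of WT over het, of the mean of the 4 Weaver lines over WT and of A733T over WT, in mESC (left) and after ATRA (right), for each gene tested. Points are edgeR estimates, bars their SE, and filled points have an adjusted p under 0.05. Fli1 and Cdh5 were not tested in mESC. After ATRA Tal1 is at 2.41, 0.41 and -0.67 in the 3 comparisons, and in mESC Vwf is at -2.64 in the Weaver mean.

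In undifferentiated cells most of the genes were low. Line means of Tal1, Kdr, Lmo2, Etv2 and Runx1 were 0.158 to 1.71 CPM and those of Gata2 2.7 to 10 CPM, while Pecam1 reached 116.7 ± 6.88 and Vwf 15.7 ± 2.25 CPM in parental. Fli1 had 6 counts and Cdh5 2 in the 24 libraries, and neither was tested, which leaves 8 genes. Per kilobase of exon, the scale on which levels of genes can be set against each other, Pecam1 led in WT in mESC at 13.7 CPM per kilobase, followed by Etv2 at 1.16 and Gata2 at 0.94. After ATRA the order in WT was Etv2 (22.8 CPM per kilobase), Lmo2 (9.24), Tal1 (5.3), Pecam1 (4.56), Gata2 (3.37), Kdr (2.07), Fli1 (1.36), Runx1 (0.414), Cdh5 (0.275) and Vwf (0.0766).

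Vwf in mESC separated the lines into 3 levels. It was at 17.4, 13.1 and 16.6 CPM in parental, 12.2, 10.9 and 14 in het, 5.67, 6.25 and 6.31 in WT, 6.44, 5.28 and 5.56 in A733T, and 0.368 to 1.85 CPM over the 12 Weaver libraries (median 0.991). Parental and het overlapped, as did WT and A733T, and the Weaver libraries lay below all others. Vwf was lower in WT than in het (log2 -1.03, SE 0.146, adjusted p = 2.08e-05) and lower again in the Weaver mean than in WT (-2.64, SE 0.143, adjusted p = 1.36e-13). Each of the 4 lines was called, at -3.42 in A677T, -2.45 in R679C, -1.91 in K634E and -2.78 in K563E, and these calls held without any 1 library.

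Pecam1 went the same way by less. It was at 107.1, 107.4 and 102.8 CPM in het, 86.7, 88.6 and 80.5 in WT, and 47.4 to 74.7 CPM over the 12 Weaver libraries (median 58.1), with no overlap between these. The log2 value was -0.31 for WT against het (SE 0.0668, adjusted p = 0.00231) and -0.49 for the Weaver mean against WT (SE 0.052, adjusted p = 3.11e-08). K563E was at -0.73, R679C at -0.54, A677T at -0.48 and K634E at -0.23 (adjusted p = 0.0141, lost without K634E replicate 3 (0.0608) or WT replicate 2 (0.0716)). In A733T Pecam1 was above WT (0.38, SE 0.0669, adjusted p = 0.000183).

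Tal1 was lower in the Weaver lines than in WT in mESC, while it was higher after ATRA. It was at 1.16, 0.429 and 0.885 CPM in WT and at 0.063 to 0.455 CPM over the 12 Weaver libraries (median 0.223), and 1 WT library lay inside their range. The log2 difference of the mean was -1.7 (SE 0.353, adjusted p = 0.000376). All 4 lines were called, at -2.2 in A677T, -1.8 in K634E, -1.5 in K563E and -1.28 in R679C. The A677T call held without any 1 library, with 9 counts of Tal1 in that line. In fits of only the groups compared, Tal1 in the Weaver lines in mESC did not pass the filter on low counts and was not tested. Those of the others were lost in K634E without K634E replicate 2 (0.0564) or WT replicate 1 (0.0541), in K563E without K563E replicate 3 (0.0548), K563E replicate 1 (0.064) or WT replicate 1 (0.104), and in R679C with the GC correction (0.0585) or without R679C replicate 3 (0.18), R679C replicate 1 (0.0586), WT replicate 3 (0.108) or WT replicate 1 (0.206).

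Gata2 (-0.56, adjusted p = 0.00268) and Lmo2 (-0.83, 0.0307) were also called lower in the Weaver mean in mESC. With Vwf, Pecam1 and Tal1 this makes 5 of 8 genes tested, where 44.4% of all genes were called. Both calls were lost with the GC correction (0.19 and 0.11) and with A733T averaged in (0.17 and 0.0899), and that of Lmo2 also without WT replicate 3 (0.0687), WT replicate 2 (0.0775) or WT replicate 1 (0.112). Markers fell beside them, with 6 of 8 extraembryonic endoderm markers tested called lower (sums of 279.5 to 375.8 CPM per Weaver library against 532.1 to 546.4 in WT) and 1 higher. Of 5 retinoic acid response genes tested 4 were lower (sums of 75.5 to 112.0 against 123.8 to 131.6), of 8 trophoblast markers 4 were lower and 1 higher (101.5 to 125.1 against 132.1 to 144.3), and all 3 fibroblast markers tested were lower (1.78 to 4.54 against 6.2 to 7.68). The pluripotency markers also had lower sums (4623.8 to 5431.1 against 5723.8 to 5880.7), and those of the neural markers overlapped (156.8 to 219.5 against 189.0 to 204.3). The sums of 10 early mesoderm genes were higher instead, at 59.6 to 87.6 CPM per Weaver library against 53.3 to 56.3 in WT. The part of these markers in the result was not tested.

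By line in mESC, A677T and R679C had 5 genes called and K634E and K563E 4, all lower than WT, where 44.6%, 23.7%, 29.3% and 34.5% of genes were called. Gata2 was lower in R679C (-0.76) and K634E (-0.91). It stood at -0.59 in K563E (adjusted p = 0.0172), lost with the GC correction (0.272) or without K563E replicate 1 (0.0724). In A677T it stood at 0.04 (0.889), and at 0.45 (0.0236) with the GC correction. Etv2 in K563E stood at 0.36 (0.329), and with the GC correction was called higher than in WT (0.72, 0.0412). Lmo2 was called in A677T (-1.09, 0.0415) and R679C (-1.23, 0.0347). The former was lost with the GC correction (0.135), in DESeq2 (0.0543), without the filter on low counts (0.0624), with only the groups compared (0.0902) or without A677T replicate 2 (0.164), A677T replicate 1 (0.142), WT replicate 3 (0.067), WT replicate 2 (0.0737) or WT replicate 1 (0.0981), and the latter with the GC correction (0.0668) or without any 1 of the 6 libraries (0.0688 to 0.0921). Etv2 in A677T stood at -0.86 (0.0271), lost with the GC correction (0.322), in DESeq2 (0.0511), without the filter on low counts (0.0876), with only the groups compared (0.0837) or without A677T replicate 3 (0.104) or WT replicate 3 (0.198).

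Etv2 was the 1 gene of the 8 called higher in WT than in het in mESC. It was at 0.425, 0.296 and 0.39 CPM in het and 1.01, 0.906 and 1.72 in WT, with no overlap (log2 1.68, SE 0.333, adjusted p = 0.00111). Gata2 stood at -0.44 (adjusted p = 0.092), and passed with the GC correction (0.0295) and with only the groups compared (0.0206). Etv2, Vwf and Pecam1 give 3 of 8 genes called, where 12.1% of genes were. Against parental, Gata2 (-0.94), Vwf (-1.38) and Pecam1 (-0.46) were lower in WT, with 19.1% of genes called, and Etv2 stood at 0.65 (adjusted p = 0.142). None of the 8 was called in het against parental by edgeR or DESeq2, where 3.44% of all genes were by edgeR. Tal1 stood at -1.08 (adjusted p = 0.201), Etv2 at -1.03 (0.14) and Gata2 at -0.5 (0.096), and Gata2 passed with the GC correction (0.0431) and with only the groups compared (0.0123).

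Against het, the Weaver mean in mESC had 5 of 8 genes called, with 51.1% of all genes. Vwf (-3.67), Gata2 (-1.0) and Pecam1 (-0.81) were lower and Etv2 (1.52) higher. Kdr stood at 1.25 (adjusted p = 0.0194), lost without the filter on low counts (0.0743) and without het replicate 3 (0.0587) or het replicate 1 (0.0905). In A733T, 3 of 8 genes were called above WT, with 19.3% of all genes called. Gata2 was at 8.75, 10.9 and 10.4 CPM against 5.21, 5.2 and 4.81 (log2 1.0, SE 0.166, adjusted p = 9.76e-05), with no overlap. Beside Pecam1, Tal1 stood at 1.09 (SE 0.359, adjusted p = 0.0338), lost in DESeq2 (0.0506) and without A733T replicate 3 (0.0618), A733T replicate 2 (0.166), WT replicate 3 (0.0844) or WT replicate 2 (0.176). Beside these, 5 of 8 extraembryonic endoderm markers (sums of 586.3 to 656.2 CPM) and 4 of 8 trophoblast markers (168.2 to 186.5 against 132.1 to 144.3) were called higher in A733T, as were all 3 fibroblast markers tested (13.2 to 15.8 against 6.2 to 7.68), and their part in the result was not tested.

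**Figure D3:**
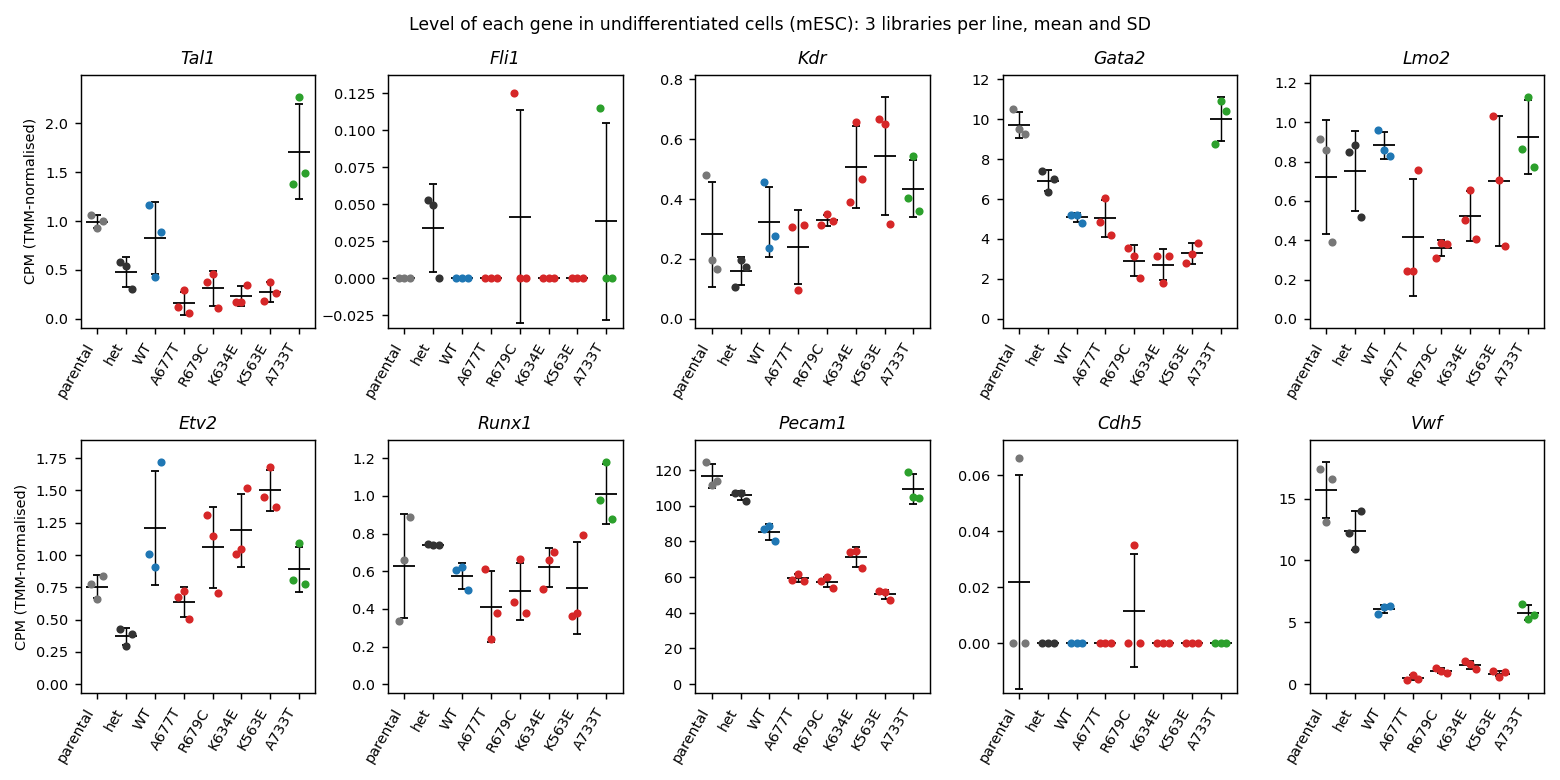
Level of each of the 10 genes in undifferentiated cells, in TMM-normalised CPM on a linear axis that differs between panels, by line. Points are the 3 libraries, the dash and bar their mean and SD (the bar of a mean near 0 can reach below 0), with colours as in the plot of levels after ATRA. Vwf has means of 15.7 CPM in parental and at most 1.57 in the Weaver lines, and Fli1 and Cdh5 are at 0 in most libraries.

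The response to ATRA was then read within each line. In WT, 8 of the 10 genes rose and Pecam1 and Vwf fell, where 59% of 17683 genes were called. The Weaver mean and A733T likewise had 8 higher and 2 lower (75.2% and 55.8% of genes called). In parental 7 rose and 3 fell (55.2% called), and in het 7 rose and 2 fell (56.8% called). The gene that set these lines apart was Gata2, at -0.55 in parental (adjusted p = 0.00314), -0.23 in het (0.238), 1.84 in WT, 2.85 in the Weaver mean and 0.91 in A733T.

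Tal1 rose by a log2 value of 2.1 (SE 0.244) in parental, 3.21 (0.272) in het, 4.82 (0.213) in WT, 6.95 (0.129) in the Weaver mean and 3.07 (0.194) in A733T. For Kdr these values were 3.17 (0.331), 4.42 (0.34), 5.82 (0.247), 6.3 (0.118) and 4.43 (0.253). Both estimates were lowest in parental and highest in the Weaver mean. For Kdr the response of the Weaver mean was not called different from that of WT (0.48, SE 0.431, adjusted p = 0.548 in edgeR). For Tal1 it started from few counts in mESC, at a mean of 0.244 CPM in the Weaver lines and 0.826 in WT. Differences of response from parental were not tested. Etv2 was at 2.79, 4.11, 4.32, 5.05 and 3.89 in the same order of lines, and Lmo2 at 3.28, 3.72, 4.49, 5.48 and 4.17. Runx1 was at 1.98, 1.68, 3.1, 2.22 and 1.74, highest in WT.

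Fli1 and Cdh5 had almost no counts in mESC, so their rise is given as a bound against 3 counts over the group, or as a ratio with its 95% exact counting interval where 1 to 3 counts were seen. Fli1 was at least 92.5-fold higher after ATRA in WT and at least 15.5-fold in parental, each from 0 counts in mESC. In het, with 2 counts in mESC, it was 28.3-fold higher (interval 7.54 to 238.1), and in A733T, also with 2, 80.5-fold (21.9 to 670.0). Cdh5 was at least 22.6-fold higher in WT, at least 6.56-fold in het and at least 13.9-fold in A733T. Intervals and bounds cover counting error only.

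Pecam1 stood at -1.12 in parental, -1.33 in het, -1.59 in WT, -1.51 in the Weaver mean and -1.99 in A733T. Vwf stood at -2.58, -2.83, -2.29, -0.75 and -1.53, and in the Weaver lines its libraries overlapped between the states. All of these were called.

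**Figure D4:**
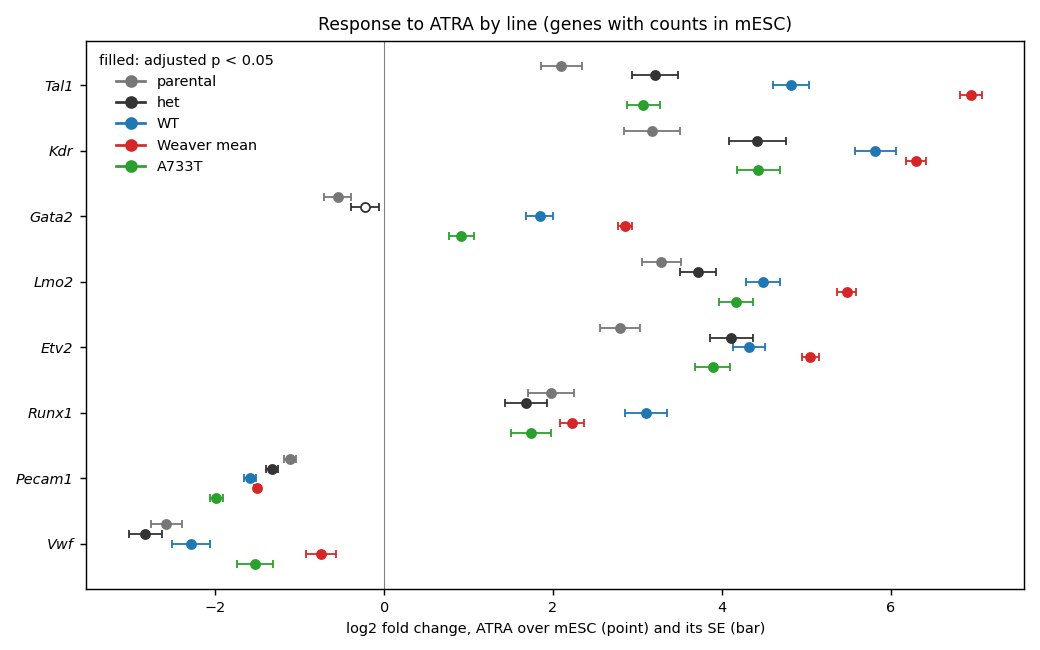
Log2 fold change of ATRA over mESC within each line for the 8 genes with counts in both states. Points are edgeR estimates, bars their SE, filled points have an adjusted p under 0.05, and colours mark parental, het, WT, the Weaver mean and A733T. Tal1 ranges from 2.1 in parental to 6.95 in the Weaver mean, and Gata2 is at -0.55 in parental and 1.84 in WT.

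The difference between lines was itself compared between the states, as an interaction (ATRA minus mESC). For WT against het 2.25% of all genes were called, and Gata2 stood at 2.06 (SE 0.228, adjusted p = 5.66e-08). Tal1 (1.61, 0.0371) and Runx1 (1.42, 0.0326) made 3 of 10. The Tal1 call was lost without ATRA WT replicate 3 (0.0545), ATRA WT replicate 1 (0.0615), ATRA het replicate 3 (0.0658), ATRA het replicate 2 (0.0738), mESC WT replicate 3 (0.0643), mESC WT replicate 2 (0.14), mESC het replicate 2 (0.168) or mESC het replicate 1 (0.185). The Runx1 call was lost without the filter on low counts (0.106) and without ATRA WT replicate 3 (0.0645), ATRA WT replicate 2 (0.0538), ATRA het replicate 3 (0.0814), ATRA het replicate 2 (0.0756), mESC WT replicate 3 (0.102), mESC WT replicate 2 (0.0571), mESC WT replicate 1 (0.0608), mESC het replicate 3 (0.0791), mESC het replicate 2 (0.0724) or mESC het replicate 1 (0.0655).

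For the Weaver mean against WT, 4 of 10 were called (7.07% of genes). Tal1 stood at 2.13 (SE 0.354, adjusted p = 4.09e-05), Vwf at 1.54 (0.000296) and Gata2 at 1.01 (0.000167). Lmo2 stood at 0.99 (0.0275), lost with the GC correction (0.054), with A733T averaged in (0.147) and without mESC K634E replicate 3 (0.0511), mESC WT replicate 3 (0.0897), mESC WT replicate 2 (0.0701) or mESC WT replicate 1 (0.112). Etv2 stood at 0.73 (0.0712), and passed in DESeq2 (0.0496) and with the replicate block (0.0463). For A733T against WT, 4 were called (3.17% of genes). Tal1 (-1.74, 0.000548) and Gata2 (-0.93, 0.0076) held without any 1 library. Runx1 (-1.35, 0.0266) was lost without the filter on low counts (0.0804) and without ATRA A733T replicate 2 (0.0585), ATRA A733T replicate 1 (0.05), ATRA WT replicate 3 (0.0503), mESC A733T replicate 2 (0.0927), mESC A733T replicate 1 (0.0535) or mESC WT replicate 3 (0.0944). Pecam1 (-0.41, 0.0142) was lost without the filter (0.0781) and without mESC A733T replicate 1 (0.0843) or mESC WT replicate 3 (0.0733). Kdr stood at -1.39 (0.129), and passed with the replicate block (0.0481) and with only the groups compared (0.0428). The 3 interactions share the WT libraries.

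Other genes of the programme were read from 5 lists of 101 genes in all. After ATRA, 30 of 73 tested were called in WT against het, 25 of them higher and 5 lower, where 16.4% of all genes were called. The median log2 value of the 73 was 0.27 against -0.01 over all genes. Among 23 transcription factor genes 8 were higher and 1 lower, with Sox18 (1.86, SE 0.141, adjusted p = 6.86e-10), a factor of endothelial identity, and Mef2c (1.72, 9.52e-05) furthest up and Klf2 (-0.61, 2.03e-05) down. Among 27 receptors and ligands 9 were higher, such as the VEGF co-receptor gene Nrp1 (1.29, 0.00108), and 3 lower. Vegfa, the ligand of KDR, was among the latter, at 54.3 CPM in het and 25.1 in WT (-1.11, SE 0.114, adjusted p = 6.28e-08). Of 12 surface and secreted proteins 5 were higher and 1 lower, and of 7 early mesoderm genes 3 were higher. The 4 blood cell genes tested had a median log2 value of 0.16.

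In the Weaver mean against WT after ATRA, 17 of the 73 rose and 14 fell, where 20.5% of all genes were called. The median log2 value of the 73 was 0.1. The number called, 31, came to 19 without WT replicate 2. Ace (-1.49, 2.71e-08), Sox17 (-1.13, SE 0.089, adjusted p = 3.18e-10), a factor of endoderm and of endothelium, Pdgfra (-0.99, 2.53e-10), a growth factor receptor of mesoderm, and Nos3 (-0.89, 5.69e-05), the endothelial nitric oxide synthase gene, had the largest falls. The largest rises, in Prox1, Myb, Kitl and S1pr1 (0.66 to 0.89), were each lost without at least 1 library. These were WT replicate 2 for Prox1 (0.362), Myb (0.135) and Kitl (0.0661), WT replicate 3 for Prox1 (0.113) and S1pr1 (0.175), and for Prox1 also R679C replicate 1 (0.0515) and A677T replicate 3 (0.0504). In A733T 12 of 73 were higher than in WT and 7 lower, where 17.7% of all genes were called. Foxc1, a forkhead factor of mesoderm (2.58, SE 0.261, adjusted p = 6.56e-08), and Vegfa (0.98, 8.07e-07) were higher, and Sox18 (-0.81, 8.58e-05) and Robo4, an endothelial receptor gene (-0.81, 4.26e-05), lower.

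In mESC, 37 of 61 genes of these lists tested were called in the Weaver mean against WT, 12 of them higher and 25 lower. Of all genes 44.4% were called, and the median log2 value of the 61 was -0.3. Robo4 rose (1.45, SE 0.148, adjusted p = 1.83e-08), and Vegfa (-1.54, 1.07e-15) and Ace (-2.37, 1.41e-08) fell. In WT against het, 7 of 61 were higher and 6 lower, where 12.1% of all genes were called. Robo4 (1.25, 0.000196) and Eomes (0.8, 2.07e-07), a factor of mesoderm and endoderm, were higher, and Vegfa (-0.73, 4.83e-07) and Tek (-0.65, 0.00172), the angiopoietin receptor gene, lower. In A733T against WT, 8 were higher and 8 lower, where 19.3% of all genes were called. Robo4 (-1.79, 3.33e-06) and Eomes (-1.12, 4.04e-10) were among the lower.

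Likeness of pattern was described by the Pearson correlation of log2(mean CPM + 0.5) over the 16 groups of line and state. The contrast of the states runs through all of these values, and the genes share libraries. Kdr and Etv2 were each other's closest gene (r = 0.995), and Fli1 was closest to Kdr (0.995). Tal1 was closest to Sox18 (0.994), Shank3 (0.991) and Adora2a (0.981), and Gata2 to Ramp2 (0.953), Lzts1 (0.95) and Lyl1 (0.945). Runx1 was closest to Tril (0.979), Rptn (0.977) and Sox17 (0.977). Lmo2 was closest to Pcdh1 (0.994), Cdh5 to Nrp1 (0.986), Pecam1 to Tmco4 (0.99) and Vwf to Nphp4 (0.975).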

How the data were processed

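Poly(A) RNA was sequenced from random-primed cDNA, per the labels' protocols. The authors deposited raw counts per gene, without normalisation. The submitters' processing notes name the mm10 build, STAR 2.7.3a, cutadapt 3.2, DESeq2 1.38.3 and featureCounts 1.6.4. The strand setting and the annotation release were not given in the sources used here. Symbols and positions come from GENCODE M21 on GRCm38 (55141 of 55401 identifiers found), and 6 columns that match no label were left out.

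The counts were fitted with edgeR 4.0.16 in R 4.3.3 (filterByExpr, TMM, robust quasi-likelihood test), over the 24 libraries of a state with 1 mean per line, or over all 48 for responses and interactions. In all, 28 comparisons were tested, with Benjamini-Hochberg adjustment over all genes. Alternatives were DESeq2 1.42.0, its size factors in edgeR, no filter on low counts, a replicate block, a correction for the GC trend, both together, only the groups compared, A733T averaged into the Weaver mean, and leaving out each library. The fit was tested on simulated data.

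The 10 genes and all lists were chosen with earlier results of these data known. Of the other list genes, those eligible to be named were at most 4 per direction and comparison, the largest changes among called genes whose mean reached 1 CPM in a group, and for each of the 10 genes the 3 of closest pattern. Likeness left out genes below that level and predicted gene models.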

Additional observations from a re-analysis of the deposited data

Results flagged for a closer look

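The difference between lines changed between mESC and ATRA, as an edgeR interaction with an adjusted p under 0.05, for these genes. For WT against het, the values after ATRA minus mESC were 1.61 for Tal1, 2.06 for Gata2 and 1.42 for Runx1. For the Weaver mean against WT they were 2.13 for Tal1, 1.54 for Vwf, 1.01 for Gata2 and 0.99 for Lmo2. For A733T against WT they were -1.74 for Tal1, -1.35 for Runx1, -0.93 for Gata2 and -0.41 for Pecam1. Tal1 in the Weaver mean and in A733T was called with opposite signs in the 2 states. So was Gata2 in the Weaver mean (-0.56 in mESC, 0.43 after ATRA). Both Gata2 calls and the mESC call of Tal1 in A733T were lost in some fits, as given above. With 1 state not called, signs also differed for Lmo2 in the Weaver mean (-0.83, 0.12). In A733T this held for Runx1 (0.83, -0.55) and Pecam1 (0.38, -0.05), and in WT against het for Gata2 (-0.44, 1.62) and Runx1 (-0.35, 1.06). Vwf in the Weaver mean was below WT in both, at 1.01 CPM in mESC and 0.588 after ATRA. No cause was tested.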

How the results depend on the processing

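Of 164 results called for the 10 genes, 42 concern a single variant and 122 do not. None changed sign under any alternative. Of the 122, 110 stayed called in every alternative other than leaving out a library and 106 in all, and of the 42, 27 did, counting only alternatives in which the gene was tested. Tal1 in the Weaver lines in mESC and Cdh5 between the states in parental and het were not tested with only the groups compared. Of 96 results not called, 19 were called under some alternative and 26 changed sign under some.

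The number of the 10 genes called changed most in these settings. The share of all genes called in each setting is not given here, so these changes were not set against those over all genes. With A733T averaged in, the Weaver mean against WT had 3 in place of 5 in mESC and 5 in place of 8 after ATRA. With the GC correction, alone or with the block, het against parental in mESC had 1 in place of 0, also with only the groups compared, and the Weaver mean and R679C against WT in mESC had 3 each in place of 5. A677T in mESC had 3 in place of 5 in DESeq2 and without the filter, and 2 with only the groups compared, where Tal1 did not pass the filter. K634E after ATRA had 7 in place of 4 with the GC correction and block, and 1 with only the groups compared. The A733T interaction had 2 in place of 4 without the filter. Over libraries left out, counts ran from 1 to 3 for het against parental after ATRA, 3 to 4 for A733T against WT after ATRA, 1 to 3 for the interaction of WT and het and 2 to 4 for that of A733T and WT. For single variants they ran in mESC from 3 to 4 in A677T, 3 to 4 in R679C and 2 to 4 in K563E, and after ATRA from 3 to 6 in R679C and 1 to 4 in K634E. Of the other 101 genes, 19 in place of 31 were called in the Weaver mean after ATRA with A733T averaged in, 29 in place of 19 in A733T after ATRA with the GC correction and block, 12 in place of 21 in the Weaver interaction with A733T averaged in, 12 in place of 7 in the A733T interaction with only the groups compared, and 3 in place of 5 in het against parental in mESC without het replicate 1 or parental replicate 3. Causes were not tested.

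Sign changes of results not called were as follows. Etv2 in mESC stood at 0.21 with the GC correction and 0.22 with correction and block in the Weaver mean against WT, and at 0.15 and 0.16 in R679C. Runx1 stood at 0.05 in the Weaver mean in mESC with A733T averaged in, and against het after ATRA at -0.01 without the filter, -0.03 with the GC correction and -0.02 with correction and block. Gata2 in A733T after ATRA stood at -0.08 with the correction, alone or with block. In the Weaver interaction, Fli1 stood at -0.65 with A733T averaged in, -0.07 with the block and -0.15 with correction and block, and Pecam1 at -0.02 with A733T averaged in. Over libraries left out, with log2 values as the lowest and highest, sign changes were seen for Lmo2 -0.25 to 0.27 and Runx1 -0.09 to 0.62 (mESC het against parental), Tal1 -0.63 to 0.02, Kdr -0.2 to 0.79 and Runx1 -0.45 to 0.28 (mESC WT against parental), Etv2 -0.33 to 0.15 (mESC Weaver against WT), Lmo2 -0.09 to 0.19 and Vwf -0.14 to 0.0 (mESC A733T against WT) and Gata2 -0.15 to 0.11 (mESC A677T against WT). The same held for Kdr -0.11 to 0.39 and Etv2 -0.32 to 0.16 (mESC R679C against WT), Etv2 -0.21 to 0.32 (mESC K634E against WT), Runx1 -0.6 to 0.06 (mESC K563E against WT), Tal1 -0.21 to 0.26, Fli1 -0.13 to 0.16, Runx1 -0.25 to 0.1 and Cdh5 -0.78 to 0.12 (ATRA het against parental) and Runx1 -0.09 to 0.22 (ATRA Weaver against het), and for Gata2 -0.04 to 0.13 (ATRA A733T against WT), Lmo2 -0.08 to 0.08 (ATRA A677T against WT), Lmo2 0.0 to 0.15 and Cdh5 -0.28 to 0.08 (ATRA R679C against WT), Lmo2 -0.02 to 0.1 (ATRA K634E against WT) and Fli1 -0.14 to 0.7 (the interaction of the Weaver and WT).

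Replicate numbers were shared between groups. In 1 of 16 pairs of groups, R679C and WT after ATRA, was every r of same-numbered libraries above 0.1 (0.19, 0.19 and 0.31). After ATRA all values were also positive, but lower, for A677T (0.01 to 0.19), K634E (0.05 to 0.28), K563E (0.04 to 0.2) and A733T (0.07 to 0.15) with WT. In mESC the values of variants with WT ran from -0.15 in A677T to 0.05 in K634E. The main fits, also that of R679C and WT, did not pair the samples, so a weaker pairing after ATRA is not excluded. With the replicate block, 5 of the 10 genes in place of 4 were called in each of the Weaver and A733T interactions, and after ATRA 8 in place of 7 in A677T, 7 in place of 5 in R679C, 5 in place of 4 in K634E and 9 in place of 8 in K563E. The other counts of the 10 genes were the same with the block. The shares of all genes called with the block are not given here either. Low counts limit Fli1, Cdh5, Kdr, Tal1, Lmo2, Etv2 and Runx1 in mESC. They also limit Cdh5 after ATRA and Vwf in the Weaver lines in both states (17 to 91 counts per line).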
